A study of Homo sapiens with 9 samples.

Results

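STC1, STC2 and GDF15 encode 3 secreted signalling proteins, and they were followed here in HEK293T cells, a human embryonic kidney line that carries the SV40 large T antigen, as 3 of the 57500 genes in the count files. The 3 genes were chosen by name with the measured differences between the treatments already known, so their differences are given as descriptions and carry no test. RNA was sequenced from cells incubated for 5 h with 10 µM HBC530, with 10 µM MsOc3HBC or with the vehicle DMSO, in 3 biological replicates per treatment and 9 libraries in all. HBC530 is a fluorogenic ligand that the RNA aptamer Pepper binds without a covalent bond. MsOc3HBC is built on the same HBC scaffold and bears in addition a mesyloxypropyl handle through which it becomes covalently attached to the aptamer. The comparison addressed whether incubation with a reactive ligand changes the transcripts of the cell. All groups share the cell line and the growth medium, the methods name no Pepper construct for these cells, and each ligand was given at a single dose and time.

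Stanniocalcins are secreted glycoprotein hormones that were first described in fish as regulators of calcium. In mammals STC1 is known as a transcript that low oxygen raises through the hypoxia-inducible factors, whereas STC2 is known as a transcript that the transcription factor ATF4 raises in the integrated stress response, the programme in which phosphorylation of the initiation factor eIF2 lowers general translation and favours ATF4. GDF15 is a distant member of the TGF-β family that acts on the brainstem receptor GFRAL with its co-receptor RET, and its transcript is a known target of ATF4, of its partner CHOP and of p53.

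In the GRCh38 coordinates of the count files STC2 (ENSG00000113739) lay on chromosome 5 from 173314713 to 173329503 on the minus strand, with 6 exonic blocks of 6128 bases in all. GDF15 (ENSG00000130513) lay on chromosome 19 from 18374731 to 18389176 on the plus strand, with 5 exonic blocks of 2087 bases. STC2 overlapped no other annotated gene, and the microRNA gene MIR3189, which lies inside GDF15, shared 0 exonic bases with it and had 0 counts in every library.

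Because ATF4 binds DNA together with C/EBP proteins at the composite element TGATGNAA, that element was searched on both strands from 2000 bases before to 1000 bases after the start of each gene in RefSeq, on GRCh38. STC2 and GDF15 had an entry in the table of starts, and STC1 was not analysed here. STC2 held 3 matches, at 1426 and 752 bases upstream and at 581 bases downstream of its start at 173328414. At least 1 match was present in 34.5% of the 34943 starts searched and 3 or more in 1.55%. The match 752 bases upstream, inside an exon of the gene model used for counting, read TGATGCAA, a form that 7.22% of the windows held. GDF15 held 2 matches, and 2 or more were present in 8.13% of the windows. One GDF15 match, 728 bases downstream of the start at 18386158, lay outside the exons. The other, 1631 bases upstream, lay in a 28-base stretch with 223 exact copies in the genome and is not printed, whereas the other stretches occurred 1 time each. The 250 bases directly upstream of either start held no match, compared with 3.15% of all such windows that did. A match is a resemblance of letters only. The sites are shown with 10 bases on either side, 5′ to 3′ on the strand that carries the element, with the element in capitals.
STC2, chr5:173329823-173329850, minus strand: gggcagtgggTGATGAAActtcccaggc
STC2, chr5:173329149-173329176, minus strand: ctcctggaaaTGATGCAAgtcctgactg
STC2, chr5:173327816-173327843, minus strand: gctagcagggTGATGAAAtggctggggc
GDF15, chr19:18386876-18386903, plus strand: gttctgaatcTGATGAAAtcgcttgtca

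The libraries held 28056929 to 62205366 counts on genes. Within a treatment, replicates correlated at r from 0.986 to 0.996 over 18041 genes. Replicate 3 of HBC530 and replicate 3 of MsOc3HBC stood apart on the first principal component, which carried 37.3% of the variance, at 36.9 and 48.8 compared with −20.3 to −4.28 for the other 7 libraries, so values without them are given below. Those libraries also had the lowest totals, 34963314 and 28056929 counts, compared with 43199102 or more in the others. Whether depth set them apart was not tested. All 7 markers of HEK293T cells had at least 1 TPM (transcripts per 1000000, corrected for exonic length) in every library, with sums from 378 to 429 TPM. Of 4 leukocyte, 3 hepatocyte and 4 fibroblast markers, 1, 0 and 1 reached 1 TPM in every library, and PTPRC, CD3E and ALB, which define leukocytes, T cells and hepatocytes, had at most 3 counts in any library. The part of other cells in the results was not tested. In cultures of this kind a smaller share of expressing cells and less RNA per cell cannot be told apart.

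STC2 was by far the most abundant of the 3 transcripts. On the TPM scale its level in DMSO was 43.7 ± 3.51 (SD, n = 3), above 79.7% of the 18041 genes kept. GDF15 stood at 0.744 ± 0.115 TPM and STC1 at 0.392 ± 0.0388 TPM in DMSO, above 14.3% and 7.77% of the same genes. The order STC2, GDF15, STC1 held in all 9 libraries with no overlap between neighbours. STC1 was thus read from 3 to 29 counts and GDF15 from 14 to 39 counts per library, whereas STC2 was read from 2394 to 6927. The precision of the first pair was limited by counting, and the intervals for counting error below cover that error only, since reads were not tagged by molecule.

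STC1 (ENSG00000159167) showed lower values with both ligands. Its gene lay in GRCh38 on chromosome 8 from 23841915 to 23854807 on the minus strand, with 5 exonic blocks of 4149 bases, and overlapped no other annotated gene. Its normalised read count, in CPM (counts per 1000000) scaled over the 9 libraries, was 0.502, 0.484 and 0.433 in DMSO replicates 1, 2 and 3, from 23, 29 and 27 counts. With HBC530 it was 0.0952, 0.277 and 0.121, from 5, 16 and 4 counts. With MsOc3HBC it was 0.179, 0.110 and 0.112, from 8, 6 and 3 counts. All 3 DMSO libraries were above all 6 ligand libraries, while the libraries of the 2 ligands overlapped. The widest spread was in HBC530, where replicate 2 lay at 0.277 CPM, with a 95% Poisson interval of 0.158 to 0.449, above the other 2 libraries of that group.

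The group means were 0.473 ± 0.0358 CPM in DMSO, 0.164 ± 0.0981 in HBC530 and 0.134 ± 0.0396 in MsOc3HBC (SD, n = 3 each). The fitted log2 fold change of STC1 against DMSO was −1.43 for HBC530 (SE 0.364, 95% interval −2.24 to −0.63) and −1.78 for MsOc3HBC (SE 0.333, −2.51 to −1.05), that is, 0.371 and 0.291 of the DMSO level. Among all genes tested, 0% had a lower value than STC1 with HBC530 and 0.00571% with MsOc3HBC. The filter on low counts required 3 libraries above its minimum, 10 counts in a library of median size. STC1 met it through its 3 DMSO libraries with 1 HBC530 library, and through its 3 DMSO libraries with 0 MsOc3HBC libraries, so it could enter these comparisons only by being higher in DMSO. Ratios of summed counts, 79 in DMSO to 25 and 17 in the ligand groups, were 0.371 (counting interval 0.227 to 0.588) and 0.287 (0.159 to 0.489). The 2 comparisons share their DMSO libraries.

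STC1 without HBC530 replicate 2 gave a log2 fold change of −2.13 for HBC530, and without replicate 1 of that group −1.11. Without replicate 3, the library that stood apart, it was −1.29 for HBC530 and −1.72 for MsOc3HBC. Between the ligands STC1 did not pass the filter. In a fit of all 9 libraries its log2 fold change for MsOc3HBC against HBC530 was −0.35 (SE 0.471, −1.38 to 0.68). That interval spans both a lower and a higher level with the reactive ligand, and the same-numbered libraries differed by 0.79, −1.19 and −0.10.

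**Figure D1:**
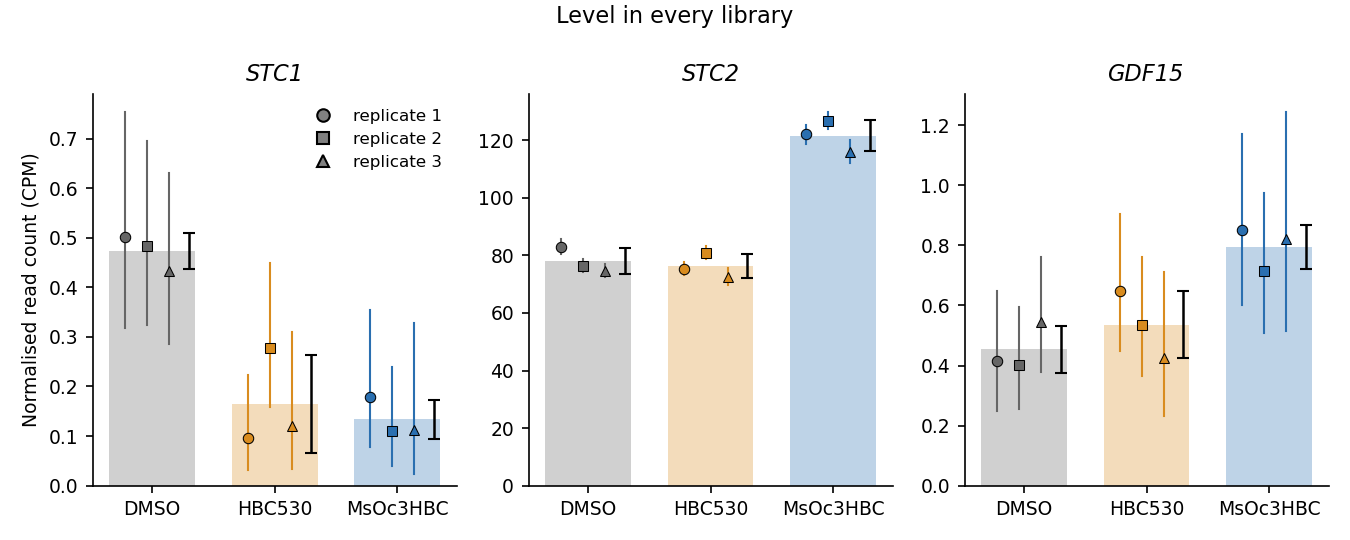
Normalised read count in CPM (y axis, linear from 0, a scale of its own for each gene) of STC1, STC2 and GDF15 in DMSO, HBC530 and MsOc3HBC. Points are libraries with the shape giving the replicate and a line for the 95% Poisson interval of the count, bars are group means and the black brackets are ± SD (n = 3). The 3 STC1 libraries of DMSO, from 0.433 to 0.502 CPM, lie above all 6 ligand libraries, and the 3 STC2 libraries of MsOc3HBC, from 116 to 127 CPM, lie above the other 6.

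STC2 was higher with MsOc3HBC than with DMSO or HBC530. It stood at 83.0, 76.4 and 74.7 CPM in DMSO replicates 1, 2 and 3. With HBC530 it stood at 75.4, 81.0 and 72.6 CPM, inside or next to the DMSO range. With MsOc3HBC it stood at 122, 127 and 116 CPM. The lowest MsOc3HBC library was thus above the highest of the other 6, and the DMSO and HBC530 libraries overlapped. The means were 78.1 ± 4.38, 76.3 ± 4.29 and 121.6 ± 5.37 CPM (SD, n = 3 each), and the spread within a group was 4.41% to 5.62% of its mean.

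The log2 fold change of STC2 for MsOc3HBC against DMSO was 0.64 (SE 0.0901, 95% interval 0.45 to 0.84), a 1.56-fold level, with 97.9% of the genes tested below it. For HBC530 against DMSO it was −0.03 (SE 0.0869, −0.22 to 0.16), an interval that leaves room for a fold between 0.857 and 1.12. For MsOc3HBC against HBC530, at the same dose and time, it was 0.67 (SE 0.0848, 0.48 to 0.87), a 1.59-fold level. Same-numbered libraries of the ligands differed by 0.69, 0.65 and 0.68, a narrower range than that of either set of differences from DMSO. Without replicate 3 of both ligands the difference between them was 0.66, and without MsOc3HBC replicate 3 that against DMSO was 0.67. Without HBC530 replicate 3 the log2 fold change of STC2 for HBC530 against DMSO was 0.01. With the replicate number as a block, the difference between the ligands was 0.67 with an SE of 0.0483. Whether the numbers pair the libraries was not tested.

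GDF15 had its highest values with MsOc3HBC. It stood at 0.415, 0.401 and 0.545 CPM in DMSO replicates 1, 2 and 3, from 19, 24 and 34 counts. With HBC530 it stood at 0.648, 0.536 and 0.425 CPM, from 34, 31 and 14 counts. With MsOc3HBC it stood at 0.852, 0.714 and 0.821 CPM, from 38, 39 and 22 counts. The MsOc3HBC libraries lay above the other 6, whereas the DMSO and HBC530 libraries overlapped. The means were 0.454 ± 0.0798, 0.536 ± 0.112 and 0.796 ± 0.0728 CPM (SD, n = 3 each).

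The log2 fold change of GDF15 was 0.79 for MsOc3HBC against DMSO (SE 0.239, 95% interval 0.27 to 1.32), a 1.73-fold level, with 98.8% of the genes tested below it. For HBC530 against DMSO it was 0.26 (SE 0.251, −0.30 to 0.82), and the same-numbered libraries went both ways, at 0.62, 0.40 and −0.35. For MsOc3HBC against HBC530 it was 0.54 (SE 0.232, 0.0019 to 1.07), so the lower bound sat next to 0. Without replicate 3 of both ligands it was 0.39, and without MsOc3HBC replicate 3 the difference from DMSO was 0.77. Without HBC530 replicate 3 the value for HBC530 against DMSO was 0.37. The ratio of summed counts for MsOc3HBC over DMSO was 1.71, with a counting interval of 1.26 to 2.34.

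Of the 3 genes, none was called for HBC530 against DMSO by edgeR (quasi-likelihood F test, p-values adjusted by Benjamini-Hochberg over all genes tested and called below 0.05), which called 0.017% of the 17684 genes tested, while 897 genes had an unadjusted p under 0.05 and DESeq2 called 24. With no filter on low counts it called STC1 for HBC530 along with 0.146% of 35505 genes. STC2 was called for MsOc3HBC against DMSO, where 0.154% of 17514 genes were, 1909 had an unadjusted p under 0.05 and DESeq2 called 149. That call was lost in 5 of the 6 fits that left out a single library and kept without MsOc3HBC replicate 3. For the same comparison STC1 was called with no filter, along with 0.706% of 35395 genes, and with the replicate block, along with 0.851%. DESeq2 gave no adjusted p for STC1 in either comparison, nor for GDF15 with HBC530. Between the ligands edgeR called 0 of the 2 tested and 0% of 17397 genes, while 1274 genes had an unadjusted p under 0.05 and DESeq2 called 61. With the replicate block it called STC2 between the ligands along with 11.4% of the genes. Groups did not overlap for 1 of the 3 genes with HBC530, compared with 13.9% of all genes tested. They did not overlap for 3 of the 3 with MsOc3HBC against DMSO, compared with 18.4%, and for 2 of the 2 tested between the ligands, compared with 15.5%. Nothing is read from these counts, since the 3 genes were selected on the same differences.

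No gene of the 3 had one ligand's libraries above those of DMSO and the other ligand's below. The signs of STC2 differed, at −0.03 and 0.64, but the first lay inside the spread of the replicates. STC1 was below DMSO with both ligands. The value of GDF15 with HBC530, 0.26, also lay inside the spread of the replicates and went from 0.10 to 0.43 when a single library was left out.

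**Figure D2:**
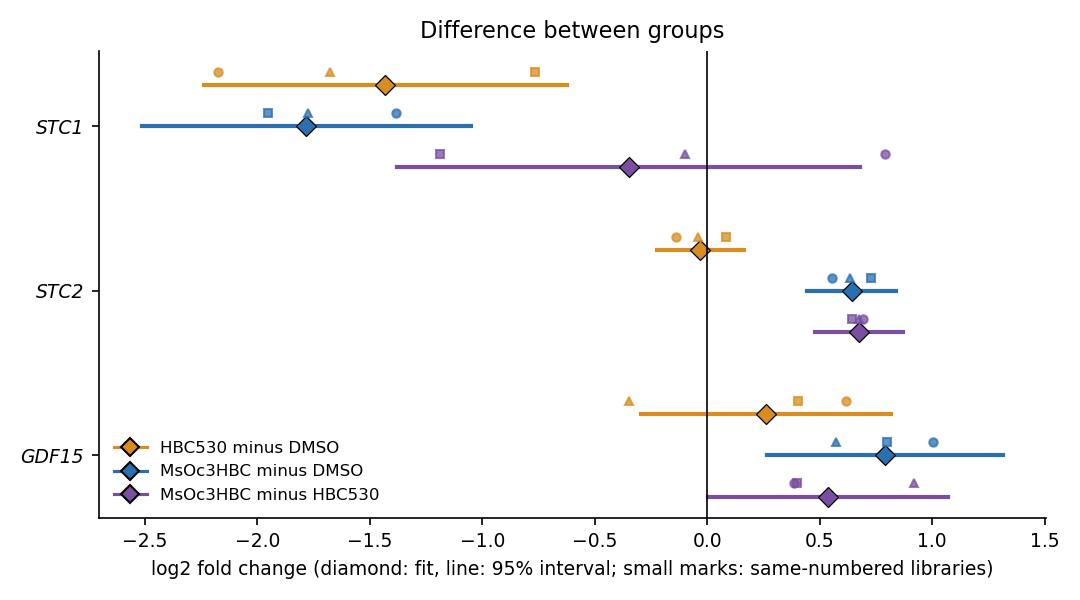
Log2 fold change (x axis) of STC1, STC2 and GDF15 in 3 comparisons. Diamonds are the fitted values, lines their 95% intervals and the small marks the differences between libraries with the same replicate number (circle 1, square 2, triangle 3). STC1 is at −1.43 and −1.78 against DMSO, and STC2 is at −0.03 with HBC530 and 0.64 with MsOc3HBC.

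The ratio of the 2 stanniocalcins within a library was higher with both ligands. Per length, STC2 exceeded STC1 by 112, 107 and 117 times in DMSO replicates 1, 2 and 3. The ratio was 536, 198 and 405 with HBC530 and 461, 782 and 701 with MsOc3HBC. Every ligand library was above every DMSO library, and the ligands overlapped. The ligand ratios rest on 5, 16 and 4 STC1 counts with HBC530 and 8, 6 and 3 with MsOc3HBC. They largely restate the lower STC1 values and are loose for the same reason. The ratio of STC2 to GDF15 was 68.2, 64.9 and 46.7 in DMSO, 39.7, 51.5 and 58.2 in HBC530 and 48.8, 60.5 and 48.1 in MsOc3HBC, so that all groups overlapped. Over the 9 libraries the log2 levels of STC2 and GDF15 had a Pearson r of 0.80, those of STC1 and GDF15 −0.62 and those of STC1 and STC2 −0.43. These are descriptions over libraries that share their treatments and their depth.

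**Figure D3:**
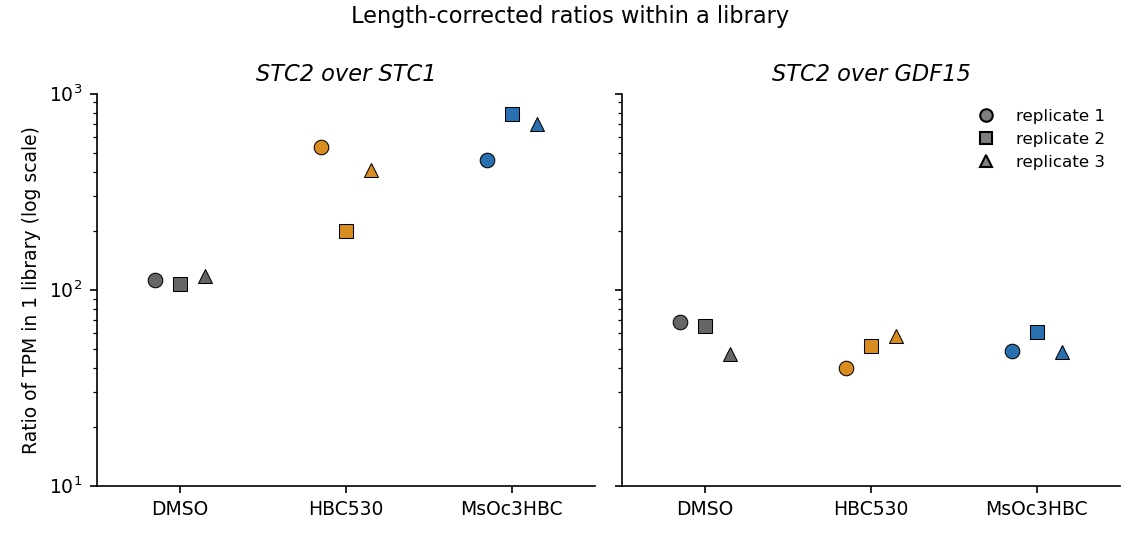
Ratio of STC2 to STC1 and of STC2 to GDF15 within each library (y axis, ratio of TPM, log scale) by treatment, with the shape of a point giving the replicate. The ratio to STC1 is 107 to 117 in DMSO and 198 or more in every ligand library, where STC1 had 3 to 16 counts. The ratio to GDF15 lies between 39.7 and 68.2 in all groups.

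Of 17 genes of the integrated stress response, the pathway best known to act on STC2 and GDF15, 6 rose and 0 fell with MsOc3HBC against DMSO with edgeR, and the median log2 fold change was 0.63, compared with 0.01 over all genes. This list, like the other lists here, was drawn up with earlier results of these data known. Of the 17, 15 had an unadjusted p under 0.05 with MsOc3HBC against DMSO, and DESeq2 and the replicate block called 12 each. Over all genes tested edgeR called 0.154%, and 0.851% with the block. CHAC1, a glutathione-degrading enzyme, rose by 2.65 (SE 0.124, adjusted p = 3.70e-06), from 2.35 ± 0.0490 to 14.8 ± 1.53 CPM (SD, n = 3 each). The transcription factor JDP2 rose by 1.61 (SE 0.122, adjusted p = 0.000338), and SLC7A11, the cystine transporter, rose by 1.58 (SE 0.143, adjusted p = 0.00142). SESN2, a stress-inducible regulator of mTORC1, rose by 0.95 (adjusted p = 0.00198) and the transcription factor ATF3 by 0.83 (adjusted p = 0.00339). DDIT3, which encodes CHOP, passed narrowly at 0.82 (adjusted p = 0.04998), and 355 of its exonic bases overlap MARS1 on the other strand, whose reads cannot be told apart without strand. NUPR1, a stress-inducible chromatin protein, stood at 1.61 without passing (adjusted p = 0.0616), ATF4 at 0.63 (adjusted p = 0.0730), the kinase-like regulator TRIB3 at 0.0046 and the transcription factor ATF5 at −0.17.

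With HBC530, 2 of the 17 rose and 0 fell, with a median of 0.30 compared with 0.0046 over all genes. There 11 had an unadjusted p under 0.05 and DESeq2 called 3, while edgeR called 0.017% of all genes tested. CHAC1 rose by 1.49 (adjusted p = 0.00062) and ATF3 by 0.74 (adjusted p = 0.0367). Between the ligands the median was 0.36 and edgeR called 0 of 17, with 8 at an unadjusted p under 0.05 and 5 called by DESeq2, and CHAC1 stood at 1.17, SLC7A11 at 1.03 and JDP2 at 0.96. With the replicate block 13 were called, compared with 11.4% of all genes tested. The call of ATF3 for HBC530 was lost in 5 of the 6 fits that left out a single library (all but the one without HBC530 replicate 3), and those of DDIT3 and SESN2 for MsOc3HBC in 4 and 1 of 6. SESN2 was lost without DMSO replicate 1 and DDIT3 without any of the DMSO libraries or MsOc3HBC replicate 1. CHAC1 in both comparisons, and JDP2, SLC7A11 and ATF3 with MsOc3HBC, were called in all 6. The median log2 CPM of the 17 genes was 4.82 to 4.83 in the DMSO libraries. In replicates 1, 2 and 3 it was 5.00, 5.04 and 5.23 with HBC530 and 5.13, 5.16 and 5.36 with MsOc3HBC. Replicate 3, which stood apart, was thus the highest with either ligand.

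Of 12 genes that low oxygen raises, the pathway best known to act on STC1, 11 were tested. With MsOc3HBC 2 fell and 0 rose, with a median of −0.41. There 9 had an unadjusted p under 0.05, DESeq2 called 5 and the replicate block called 4. Of all 17514 genes tested 1909 had an unadjusted p under 0.05 and DESeq2 called 149. EdgeR called 0.154% of them, or 0.851% with the block, and their median was 0.01. ADM, which encodes the vasodilator peptide adrenomedullin, decreased by 0.69 (SE 0.103, adjusted p = 0.0310), from 14.9 ± 0.612 to 9.26 ± 0.609 CPM (SD, n = 3 each). SLC2A1, the glucose transporter GLUT1, decreased by 0.65 (SE 0.0865, adjusted p = 0.0140), from 99.6 ± 0.968 to 63.2 ± 2.80 CPM. Its neighbours in the list did not pass, among them ANKRD37 at −0.67 and VEGFA, the angiogenic growth factor, at 0.16, with the collagen hydroxylase subunit P4HA1 at −0.22. With HBC530 all 11 values were negative with a median of −0.36, yet edgeR called 0, with 9 at an unadjusted p under 0.05, and DESeq2 and the other alternatives run called 0. Between the ligands the median was −0.09, and edgeR and DESeq2 called 0, with 4 at an unadjusted p under 0.05. The replicate block called 4 there, compared with 11.4% of all genes tested. Without a DMSO library, whichever of the 3, neither ADM nor SLC2A1 was called for MsOc3HBC, and without MsOc3HBC replicate 1 neither was. ADM was also lost without MsOc3HBC replicate 2. STC1, at −1.43 and −1.78, lay below every listed gene. Nothing is read from that place, since STC1 could pass the filter only by being higher in DMSO.

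Few genes of the remaining upstream lists passed. Of 12 p53 targets edgeR called 0 in every comparison, with medians of −0.15, 0.04 and 0.14 for HBC530 against DMSO, MsOc3HBC against DMSO and MsOc3HBC against HBC530. In the same order 0, 2 and 2 had an unadjusted p under 0.05, and DESeq2 called 0 in each. The replicate block called 2 between the ligands, compared with 11.4% of all genes tested. With MsOc3HBC the pro-apoptotic gene BBC3 stood at 0.42, the cell cycle inhibitor CDKN1A at 0.12, the death receptors TNFRSF10B and FAS at −0.22 and −0.35. These cells carry the SV40 large T antigen, and whether p53 was able to act in them was not tested. Of 11 genes of the unfolded protein response in the endoplasmic reticulum, 1 rose with MsOc3HBC, where the median was 0.10. There 3 had an unadjusted p under 0.05, and DESeq2 and the replicate block called 2 each. Over all genes tested edgeR called 0.154%, and 0.851% with the block. The median log2 CPM of the list was 6.55 and 6.56 in MsOc3HBC replicates 1 and 2, below the 6.61 to 6.66 of the DMSO libraries, and 7.03 in replicate 3. HBC530 replicate 3, the other library that stood apart, was likewise at 7.04, above the 6.64 and 6.70 of replicates 1 and 2. The gene that rose with edgeR was HERPUD1, a component of the degradation machinery of the endoplasmic reticulum, at 0.63 (SE 0.102, adjusted p = 0.0471). It kept its call in 1 of the 6 fits without a library, the one without MsOc3HBC replicate 3. The co-chaperone DNAJB9 stood at 0.53 without passing, and the chaperones HSPA5 and PDIA4 at −0.01 and 0.01. Of these 11 edgeR called 0 with HBC530, where the median was 0.09, and 0 between the ligands, where it was 0.05. DESeq2 also called 0 in both, and 2 had an unadjusted p under 0.05 in each. Between the ligands the replicate block called 3, compared with 11.4% of all genes tested.

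No gene through which the 3 proteins act passed the test. Of 13 receptors, proteases and binding partners 10 were tested, and edgeR called 0 in each comparison, with medians of −0.07, −0.12 and −0.11. DESeq2 called 0, the replicate block called 0 and 0 had an unadjusted p under 0.05 in each. GFRAL, the receptor of GDF15, had 0 counts in every library, whereas its co-receptor RET stood at 2.54 CPM in DMSO with a log2 fold change of 0.05 for HBC530 and −0.07 for MsOc3HBC. PAPPA and PAPPA2, the proteases of IGF-binding proteins that stanniocalcins inhibit, had at most 5 counts in any library and were not tested. Among the other members, with MsOc3HBC, the proprotein convertases FURIN and PCSK6 stood at −0.08 and −0.06 and the protease MMP14 at −0.24. The binding proteins IGFBP4 and IGFBP5 stood at −0.24 and −0.17, IGF1R at −0.28 and its ligand IGF2 at 0.10. STIM1, the calcium sensor of the endoplasmic reticulum, and its channel ORAI1 stood at −0.20 and 0.02.

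Other secreted signals were mostly near or below the reach of the counts. Of 20 such genes 11 were tested with HBC530 and 12 in each of the other comparisons. Against DMSO edgeR called 0 with HBC530 (median 0.15, 4 at an unadjusted p under 0.05, 1 called by DESeq2). With MsOc3HBC, where the median was 0.24, 6 had an unadjusted p under 0.05, DESeq2 called 1 and the replicate block called 2. Over all genes tested edgeR called 0.154%, and 0.851% with the block. Of the 12 listed genes tested with MsOc3HBC against DMSO edgeR called 1, which fell and was ADM, described above. ADM2, its paralogue and a known ATF4 target, stood at 0.424 CPM with MsOc3HBC and 0.103 CPM in DMSO, from 4 to 22 counts per library. It passed the filter through its 3 MsOc3HBC libraries with 0 DMSO libraries, so it could enter that comparison only by being higher with MsOc3HBC. Its log2 fold change of 1.99 (SE 0.401) is given as a description. ADM2 is nevertheless counted among the 12 tested and the 6 with an unadjusted p under 0.05, and enters the median. The activin subunit INHBA stood at 0.86 with MsOc3HBC, the growth factor TGFB2 at −0.38, and the metabolic hormone FGF21, with at most 8 counts, was not tested. Between the ligands edgeR and DESeq2 called 0 of 12, with a median of −0.02 and 3 at an unadjusted p under 0.05. The replicate block called 2, compared with 11.4% of all genes tested.

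Over all 6 lists, which hold 82 different genes, 2 of 69 tested were called with HBC530 and 9 of 70 with MsOc3HBC. Of the 9, 7 rose and 2 fell. Over all genes tested edgeR called 0.017% and 0.154% in the same order. With MsOc3HBC 34 of the 70 had an unadjusted p under 0.05 and DESeq2 called 19. The 34 include ADM2, which could pass the filter only by being higher with MsOc3HBC. Without MsOc3HBC replicate 3, the library that stood apart, 15 were called, 11 of them in the integrated stress response. Without DMSO replicate 1, 2 or 3 or MsOc3HBC replicate 1, 4, 5, 5 and 5 were called. Between the ligands edgeR called 0 of 70 in the fit of 6 libraries. There 17 had an unadjusted p under 0.05 and DESeq2 called 5. Without replicate 3 of both ligands edgeR called 18. The share of all genes called in the fits that left libraries out is not given here. Nothing is read about the lists from the counts of those fits. Exonic overlap with a gene on the other strand also touched ATF5 (626 bases with NUP62), ANKRD37 (909 bases with UFSP2), DNAJB9 (183 bases with THAP5) and FAS (380 bases with ACTA2), whose values are uncertain to that extent.

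**Figure D4:**
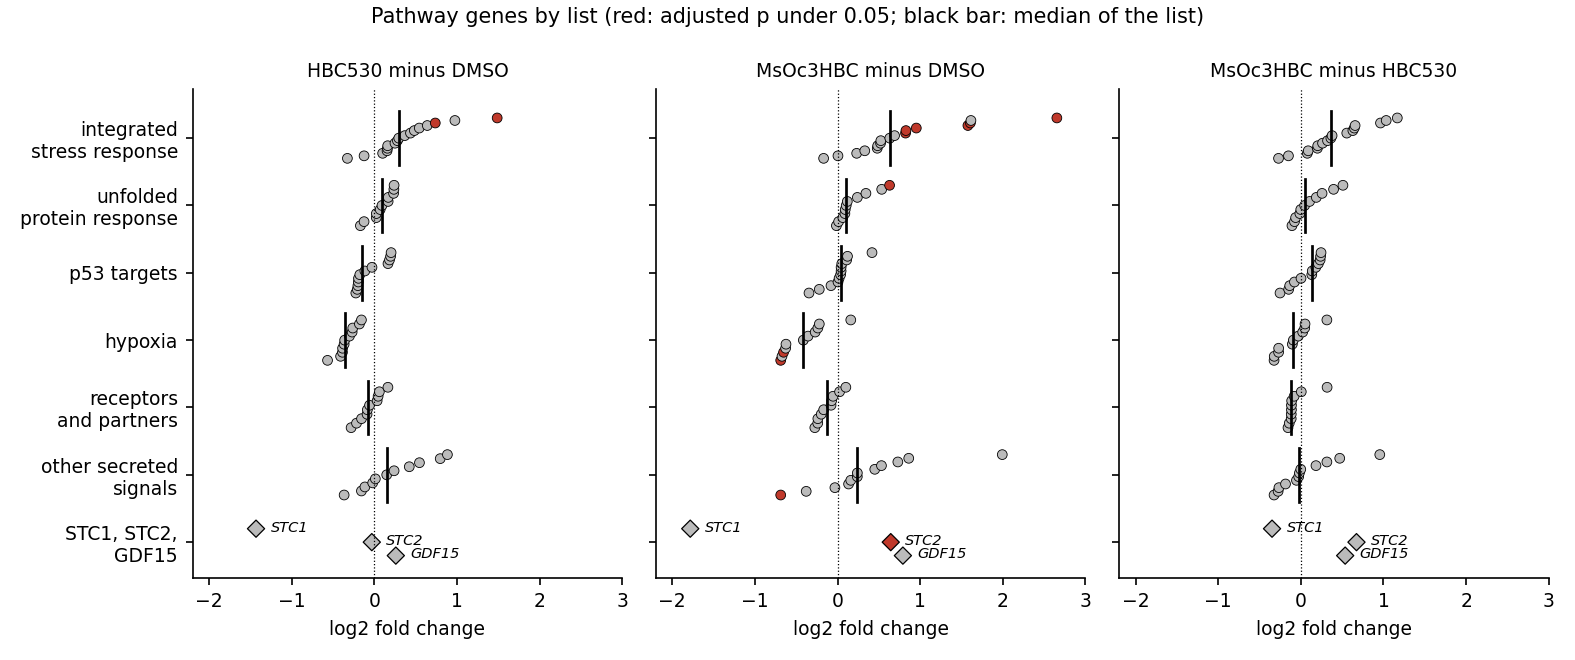
Log2 fold change (x axis) of each tested gene of the 6 pathway lists in 3 comparisons, with STC1, STC2 and GDF15 as diamonds in the lowest row. Red points passed an adjusted p of 0.05 and black bars are list medians. With MsOc3HBC the median of the integrated stress response is 0.63 and that of the hypoxia list −0.41. STC1, at −1.78, could enter this comparison only by being higher in DMSO.

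The genes whose log2 CPM ran most like each of the 3 were taken by Pearson r over the 9 libraries among 18040 other genes, as a description over libraries that share treatment and depth. For STC1 they were BHLHE40, a transcriptional repressor of the circadian clock (r = 0.94), PFKFB3, an activator of glycolysis (r = 0.91), and TXNIP, the thioredoxin-interacting protein (r = 0.91). BHLHE40 had mean levels of 58.4, 34.2 and 27.6 CPM in DMSO, HBC530 and MsOc3HBC. For STC2 they were the zinc finger gene ZFP90 (r = 0.97), the collagen receptor DDR2 (r = 0.96) and the cyclin CCND2 (r = 0.95). DDR2 had mean levels of 9.34, 10.2 and 14.1 CPM in the same order. For GDF15 they were the protocadherin PCDH12 (r = 0.98) and the zinc finger genes ZNF554 and ZNF333 (r = 0.95 each). PCDH12, as scarce as GDF15, had mean levels of 0.370, 0.490 and 0.678 CPM.

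**Figure D5:**
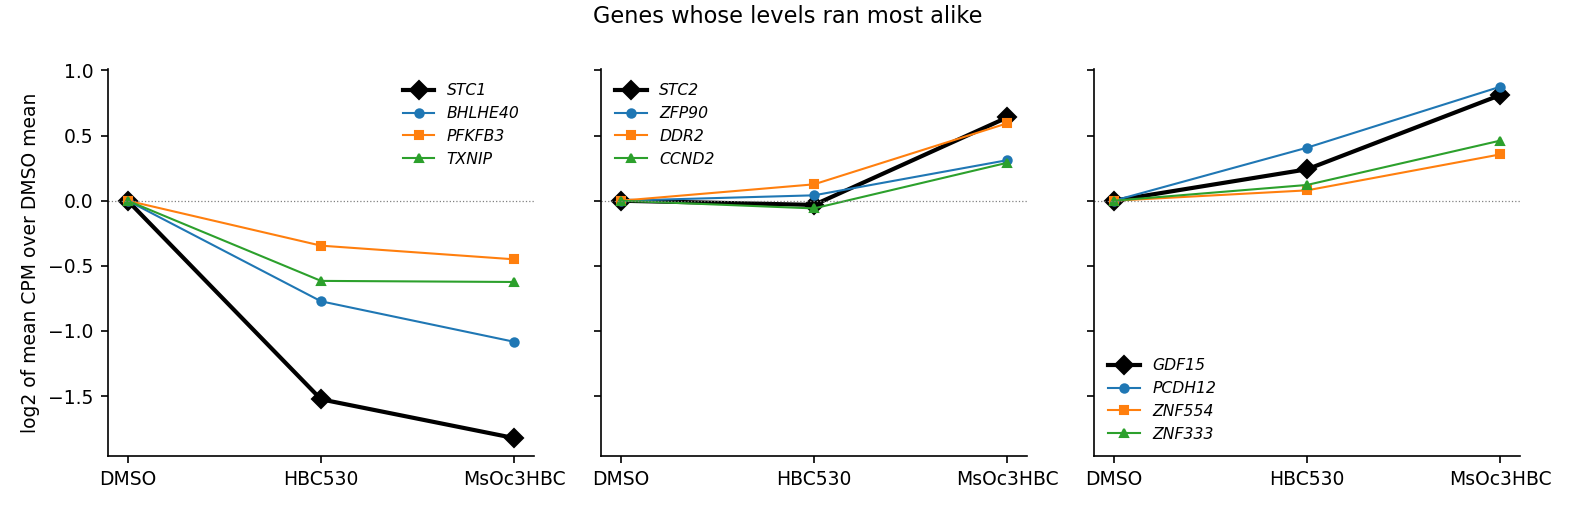
Mean CPM of STC1, STC2 and GDF15 (black diamonds) and of the 3 genes with the highest Pearson r to each, as log2 of the group mean over the DMSO mean (y axis) for DMSO, HBC530 and MsOc3HBC. BHLHE40 goes from 58.4 to 27.6 CPM between DMSO and MsOc3HBC beside STC1, and DDR2 from 9.34 to 14.1 CPM beside STC2.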

How the data were processed

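Total RNA was selected for poly(A) RNA and sequenced as paired-end reads. Per the labels and methods, the authors used Trimmomatic 0.36 for trimming and STAR 2.5.2b for alignment to GRCh38, and counted unique gene hits with featureCounts of Subread 1.5.2. The deposited values used here are these raw counts of 57500 genes. The annotation release and the strand setting are not given in the sources used here. The authors' tables of DESeq2 fold changes, p-values and size-factor scaled counts were used only for gene names.

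Genes were kept with filterByExpr, scaled by TMM and tested, 3 libraries against 3, with edgeR 4.0.16 in R 4.3.3 (quasi-likelihood F test, Benjamini-Hochberg adjustment, threshold 0.05). SE and 95% intervals come from the same fit. CPM and log2 CPM (prior count 1) used TMM factors of 9 libraries. TPM used exonic lengths. The fit was tested on simulated data with 200 changed genes. Sites were searched with pysam 0.24.0 in starts and sequence of RefSeq and GRCh38. Alternatives were RLE scaling, no filter, DESeq2 1.42.0, all 9 libraries in 1 fit, the replicate number as a block, and libraries left out.

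The 3 genes and the gene lists were chosen with earlier results of these data known. Besides the 3, the text names list genes called in any comparison, all receptors and partners, the 2 highest and 2 lowest values of each other list with MsOc3HBC, overlapping genes and the 3 most alike genes per member. ATF4 and FGF21 were added after their values were seen. The labels give replicate numbers only, and whether these pair the libraries was not tested. Between the ligands, deviations from group means correlated at 0.17, 0.37 and 0.43 for numbers 1, 2 and 3. With DMSO they did so at 0.09, 0.01 and 0.17 (HBC530) and −0.11, 0.01 and 0.04 (MsOc3HBC). Replicate 3 of both ligands stood apart and deviations within a group are tied to each other, so these values are not independent.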

Additional observations from a re-analysis of the deposited data

How the results depend on the processing

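Of 91 alternative values of STC1, STC2 and GDF15, 89 kept their sign, the exceptions being values of STC2 for HBC530 against DMSO, which ranged from −0.08 to 0.02, and 89 moved by less than 1 SD between replicates. When a single library was left out, the log2 fold change of STC1 ranged from −2.13 to −1.11 for HBC530 and from −2.07 to −1.60 for MsOc3HBC against DMSO. STC1 passed the threshold of 0.05 against DMSO with no filter for HBC530, and with no filter and with the replicate block for MsOc3HBC. The block fit used the filtered genes, which STC1 could join there only by being higher in DMSO. STC2 for MsOc3HBC against DMSO ranged from 0.61 to 0.69 over 11 alternatives and passed in 6 of them. STC2 between the ligands ranged from 0.64 to 0.72 and passed in 5 of 12. Nothing is read from these passes of STC1 and STC2, since both genes were selected on the same differences.

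Counts of listed pathway genes called depended on the setting. For HBC530 against DMSO, 2 in the reported fit, they were 7 with no filter on low counts, 4 with DESeq2 and 1 to 2 when a single library was left out. For MsOc3HBC against DMSO, 9 in the reported fit, they were 21 with no filter, 19 with DESeq2, 19 with the replicate block and 4 to 15 when a single library was left out. Between the ligands, 0 in the reported fit, they were 5 with no filter, 5 with DESeq2, 2 with all 9 libraries in 1 fit, 22 with the replicate block, 18 without replicate 3 of both ligands and 0 when any single library was left out. Over all genes the block moved the calls from 3 to 16, from 27 to 149 and from 0 to 1990 in the same order. The cause of these differences was not tested. The share of all genes called when libraries were left out is not given here, so nothing is read about the lists from those counts. Depth limited STC1 most, with 17 to 79 counts per group.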
